A study of Mus musculus with 5 samples.

Results

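Peaks of chromatin immunoprecipitation followed by sequencing (ChIP-seq) were examined at the myelin genes Mbp and Cnp in mouse gliomas induced with PDGFB. Every listed peak that overlapped 1 of 2 fixed stretches of the mm9 genome was taken, whatever its score. The stretch around Mbp ran from 82600000 to 82800000 on chromosome 18, with the gene at about 82.645 to 82.755 Mb. The stretch around Cnp ran from 100400000 to 100480000 on chromosome 11, with the gene near 100.436 Mb. Together they held 95 of the 258727 peaks in 5 lists, 58 at Mbp and 37 at Cnp. Of the 95, 20 were Olig2 peaks of control tumours. Peaks of acetylated lysine 27 of histone H3 (H3K27ac) numbered 15 in control and 21 in Olig2cKO tumours. Peaks of trimethylated lysine 4 (H3K4me3) numbered 18 in control and 21 in Olig2cKO tumours. Olig2 was mapped in control tumours only, so an Olig2 site set beside an Olig2cKO mark is a site of control tumours. Floxed P53 alleles (P53f/f) were common to all groups, and Olig2cKO tumours also had floxed Olig2 alleles (Olig2f/f). All mice had the mixed background C57Bl/6;129Sv;CD-1, and all tumours were taken 25 days after virus was injected. Each group was 1 library, and the sources used here do not say how many tumours went into it.

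Mbp encodes myelin basic protein, which compacts the myelin membrane, and Cnp encodes a phosphodiesterase of non-compact myelin. Both are switched on strongly as oligodendrocyte precursors mature, and both serve as markers of that lineage. Mbp has an upstream start that gives the golli transcripts and an internal start that gives the classic myelin transcripts. Olig2 is a basic helix-loop-helix factor of the oligodendrocyte lineage that binds E-box motifs. H3K27ac lies at active promoters and enhancers, and H3K4me3 lies mainly at promoters. The peak lists carry no gene names, and the exact gene borders on mm9 were not used here, so peaks are placed relative to the approximate gene positions above. In the RefSeq table of GRCm38.p6, the protein-coding genes next to Mbp are Galr1 and Zfp236, and those next to Cnp are Ttc25 and Dnajc7, followed by Nkiras2. Peaks away from the approximate gene positions, and not only those toward the edges of either stretch, may therefore belong to a neighbour.

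The RefSeq promoter of Cnp is shown, and peaks of all 5 lists met near that gene's position, Olig2 among them. No promoter of Mbp was available, so it could not be shown beside it. The Cnp promoter covers 250 bases before to 50 after the gene's start, on the + strand of GRCm38.p6 (chr11:100574689-100574988). Capitals mark the E-box, CANNTG, which reads the same on both strands.
Cnp promoter: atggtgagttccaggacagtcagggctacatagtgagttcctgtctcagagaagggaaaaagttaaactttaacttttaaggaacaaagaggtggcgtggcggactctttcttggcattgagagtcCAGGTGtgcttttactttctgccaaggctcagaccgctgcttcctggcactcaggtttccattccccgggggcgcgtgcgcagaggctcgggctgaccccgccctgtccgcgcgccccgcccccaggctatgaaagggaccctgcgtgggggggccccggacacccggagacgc
The promoter held 1 CANNTG, in the form CAGGTG, starting 124 bases before the gene's start. A CANNTG is in 72.3% of the 32851 promoters of the table, with a median of 1 each, so a single one is common. The forms CAGCTG and CATCTG, searched on both strands (with CAGATG as the other strand of the latter), had 0 matches in the Cnp promoter, and 30.6% of all promoters hold at least 1 of them. The GC content was 59.7%, against a median of 52.7%. A match is a description and not a measured binding site, and positions on this build cannot be set against the mm9 peaks.

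Both loci were dense in Olig2 peaks. The Mbp stretch held 12, where the median over the 11018 windows of 200 kb with any listed peak was 3, and 2% of those windows held as many. The Cnp stretch held 8, where the median over 23961 windows of 80 kb was 1, and 0.3% held as many. Histone peaks were also denser than in the median window, by acetylated length more so at Cnp than at Mbp. Control H3K27ac covered 23.3% of the Cnp stretch and Olig2cKO H3K27ac 31.9%, and 1.44% and 0.309% of windows had as much covered. At Mbp the same lists covered 8.49% and 11.7%, and 18.1% and 13.4% of windows had as much. H3K4me3 covered 6.91% (control) and 9.37% (Olig2cKO) at Mbp and 13.5% and 16.3% at Cnp. As much was covered in 9% and 6% of windows at Mbp and in 2.14% and 1.65% at Cnp. By number, 4.29% and 2.95% of windows held as many H3K4me3 peaks as the 12 and 13 at Mbp. For the 9 and 12 H3K27ac peaks at Mbp the shares were larger, 22.7% and 16.6%. At Cnp the shares by number were 9.44% (control) and 1.75% (Olig2cKO) for H3K27ac, and 4.71% and 0.993% for H3K4me3. The windows were not matched for the genes they hold. The depth of each library is unknown, and longer covered lengths in a longer list are not a measured gain.

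**Figure D1:**
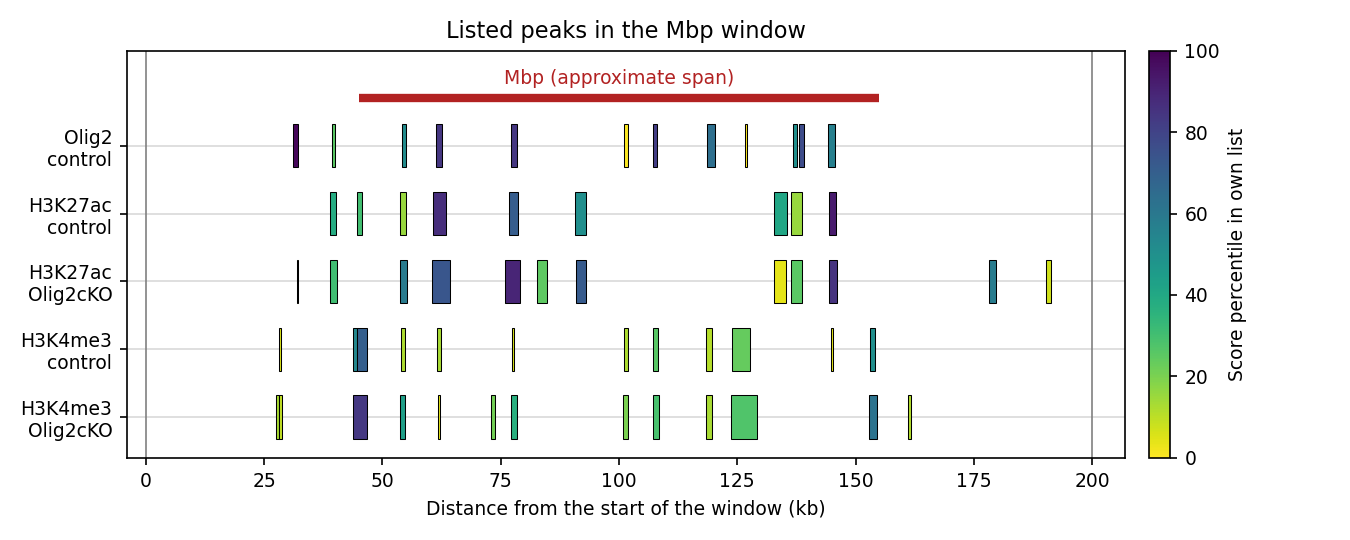
Each box is a listed peak in the Mbp stretch, drawn to scale by distance from the start of the stretch in kb, with 1 row per library and colour for the percentile of its score within its own list; the red bar is the approximate gene. In the 28.4 kb that begin at 100.8 kb, Olig2 and H3K4me3 peaks are drawn and no H3K27ac peak.

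The 12 Olig2 peaks at Mbp were spaced by a median of 7247 bp and spread over the gene and its 5′ flank. Their scores, as the authors' peak caller gave them, ranged from 50.21 to 478.10, with a median at percentile 60.4. A percentile here is the share of a library's own list with a score at or below the peak's, and a higher score is a stronger call. The highest lay outside the gene, from 82631119 to 82632070, 12930 bp before the approximate start of the gene. Its score of 478.10 was at percentile 98.3, rank 685 of 39201. It overlapped no H3K4me3 peak and no control H3K27ac peak. In Olig2cKO tumours a 368 bp H3K27ac peak, from 82631863 to 82632230, was listed there with a score of 56.68. That peak stood at percentile 5.91 by score and 0.267 by width in its list, so it was near the lowest values listed.

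The lowest Olig2 peaks at Mbp lay inside the gene, at 82700990 to 82701832 (score 50.27) and 82726577 to 82727081 (score 50.21). Both were below percentile 1 of the list. The 3 next highest after the 5′ flank peak lay at 82661336 to 82662560 (score 198.33, percentile 84.1), 82677231 to 82678347 (197.80, percentile 84) and 82707241 to 82708008 (182.92, percentile 81.7). These 3 sites differed in their histone marks: the first and second were acetylated in both genotypes, and the third in neither.

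At the Olig2 sites of Mbp, H3K27ac was listed in control tumours at 7 of 12 (58.3%, exact binomial 95% interval 27.7 to 84.8), against 68.9% of all Olig2 peaks. In Olig2cKO tumours it was listed at 8 of 12 (66.7%, 34.9 to 90.1), against 70.2%. All 7 sites acetylated in control tumours were also acetylated in Olig2cKO tumours, and the eighth was the strong flank site. H3K4me3 was listed at 8 of 12 in control tumours (66.7%, against 55.6% of all Olig2 peaks) and at 7 of 12 in Olig2cKO tumours (58.3%, against 58.1%). These intervals cover counting error only, they include the shares of the whole list, and neighbouring peaks are not independent.

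The marks combined in several ways at the Olig2 sites of Mbp. H3K4me3 in both genotypes with H3K27ac in neither was listed at 4 of 12 Olig2 sites (33.3%, 9.92 to 65.1), against 4.68% of the whole Olig2 list. At Cnp 1 of 8 sites had this combination (12.5%, 0.316 to 52.7). The combination was singled out after the values were seen, and no test was made. The 4 sites at Mbp were neighbours and not independent, so the interval does not set their share apart from that of the list. Peaks of all 4 histone lists met at 3 of 12 Olig2 sites at Mbp and 3 of 8 at Cnp, against 42.5% of the list. None of the 20 Olig2 peaks at the 2 genes lacked every mark, against 17.1% of the list. A count of 0 in 20 has an upper limit of 15% by the limit of 3 counts and 16.8% by the exact interval. Both limits lie just below 17.1%. The 20 peaks come from 2 loci and neighbouring peaks are not independent, so no difference from the list was inferred.

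The 4 sites without acetylation were neighbours, inside the gene. They lay in a stretch of 28.4 kb from 82700816 to 82729175 that held 4 Olig2 peaks, 4 H3K4me3 peaks in each genotype and 0 H3K27ac peaks in either. H3K4me3 covered 25% of that stretch in control and 30.9% in Olig2cKO tumours. All of these H3K4me3 peaks were low in their lists, at percentiles 11.3 to 25.9 in control and 12.9 to 29 in Olig2cKO tumours. The last of the 4 was very wide: 3831 bp in control tumours (82723813 to 82727643, score 122.84) and 5427 bp in Olig2cKO tumours (82723749 to 82729175, score 140.96). By width it stood at percentiles 96.9 and 98.6, and by score at 23.8 and 27.7. A broad but low H3K4me3 peak thus met 1 of the lowest Olig2 peaks of the list, 505 bp wide. Whether it covers the internal start of Mbp was not determined, since transcript positions on mm9 were not used here.

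The start of the approximate gene carried H3K4me3 in both genotypes, no Olig2 peak, and H3K27ac in control tumours alone. In control tumours H3K4me3 was split into a peak of 814 bp (82643724 to 82644537, score 396.95) and a peak of 1963 bp (82644700 to 82646662, score 818.38, percentile 70.3). In Olig2cKO tumours 1 peak of 3050 bp spanned both (82643735 to 82646784, score 1335.99, percentile 83.9). These were the highest H3K4me3 peaks of the Mbp stretch in their lists. The control H3K27ac peak here, 1124 bp from 82644614 to 82645737, scored 104.48 (percentile 30.1). The nearest Olig2cKO H3K27ac peak was 4301 bp away. In the score decile of this peak 23.4% of control H3K27ac peaks had no Olig2cKO partner, so its being listed once was not rare for its score.

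The other 8 control H3K27ac peaks of the Mbp stretch each had an Olig2cKO partner. The 9 control H3K27ac peaks of the stretch included 1 control-only peak (one with no overlapping Olig2cKO peak), the one at the gene's start, against 17.9% of the whole list. The highest control H3K27ac peak lay at 82744351 to 82745966 (score 878.08, percentile 92.8), near the 3′ end of the approximate gene, with an Olig2 peak of percentile 56.9. Its Olig2cKO partner, 82744288 to 82746002, scored 514.16 (percentile 85.4). The highest Olig2cKO H3K27ac peak lay elsewhere, at 82675888 to 82679038 (score 642.33, percentile 89.8), where the control peak of 82676718 to 82678595 scored 338.08 (percentile 70.9). Both places carried Olig2. Each library has its own score scale, so these orders hold inside a list only.

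Of the 12 Olig2cKO H3K27ac peaks of the Mbp stretch, 4 had no control partner, against 30.9% of that list. One was the 368 bp peak in the 5′ flank, and a second lay inside the gene (82682676 to 82684729, score 89.05). The other two lay beyond the gene, toward Zfp236, at 82778256 to 82779753 (score 209.70) and 82790284 to 82791293 (score 58.50). The first of that pair was the highest of the 4, at percentile 58.3, in a decile where 23.6% of peaks had no partner, and no control H3K27ac peak lay within 32289 bp. Of these 4, only the flank peak overlapped an Olig2 peak. The difference between 4 and 1 did not hold with lists cut to equal length, where 2 peaks were Olig2cKO-only and 2 were control-only.

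H3K4me3 at Mbp was mostly low in its lists and often without acetylation. The median percentile by score was 12.6 for the 12 control peaks and 21.1 for the 13 Olig2cKO peaks. H3K27ac of the same genotype was absent from the lists at 7 of 12 control peaks and 10 of 13 Olig2cKO peaks, against 33.4% and 33.3% of the whole lists. Those whole-list shares are over peaks of all scores. The share among peaks of similarly low score was not computed, so this contrast is not separated from score. An Olig2 peak lay on 8 of the 12 and 7 of the 13, against 55.7% and 50.3%, in a stretch dense in Olig2 peaks. Besides the gene's start, the 3′ end carried H3K4me3 of middle rank in both genotypes, at 82753095 to 82754139 (score 350.18, percentile 50.4) in control and 82752916 to 82754453 (score 524.50, percentile 62) in Olig2cKO tumours. Neither Olig2 nor H3K27ac was listed at that 3′ site.

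Genotype-only H3K4me3 peaks at Mbp were few and low. There was 1 among 12 control peaks (against 8.13% of the list) and there were 3 among 13 Olig2cKO peaks (against 21.4%). The control-only peak was 444 bp wide (82744721 to 82745164, score 57.40) and lay on the acetylated Olig2 site near the 3′ end. The 3 Olig2cKO-only peaks lay at 82627573 to 82628068, 82672953 to 82673862 and 82761087 to 82761653, with scores of 81.05, 110.02 and 76.37, and carried neither Olig2 nor H3K27ac. All 4 stood at or below percentile 21.1. In the score decile of the control-only peak 36.8% of control peaks had no partner. In those of the 3 Olig2cKO-only peaks, in the order above, the shares were 55.3%, 41.3% and 55.3%.

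**Figure D2:**
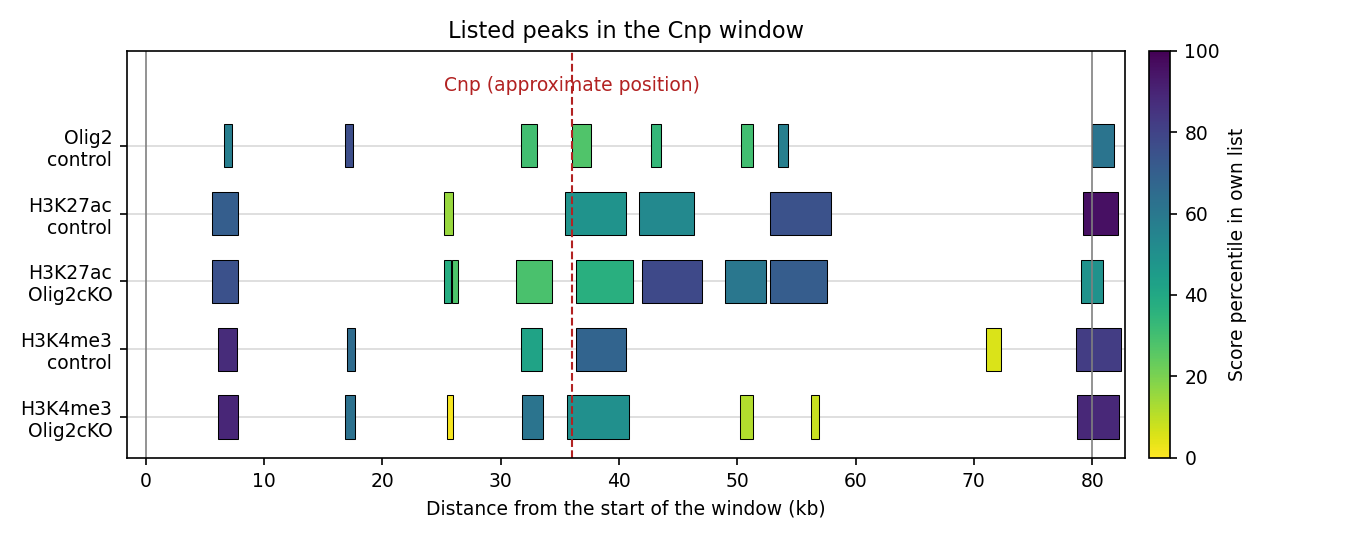
Listed peaks in the Cnp stretch, drawn to scale by distance from the start of the stretch in kb, with 1 row per library and colour for the score percentile within its own list; the dashed line is the approximate gene position and grey lines are the ends of the stretch. Wide H3K27ac peaks of 3010 to 5193 bp lie in the 26.6 kb that begin at 31.3 kb, 3 in control and 5 in Olig2cKO tumours.

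At Cnp the peaks of all 5 lists met at the gene itself. Olig2 lay at 100435998 to 100437631 (score 67.44, percentile 27.6), inside control H3K27ac at 100435439 to 100440572 (score 170.89, percentile 48.7). The Olig2cKO H3K27ac peak lay at 100436331 to 100441149 (score 119.29, percentile 36.8). H3K4me3 lay at 100436332 to 100440605 in control (score 744.31, percentile 68) and 100435619 to 100440845 in Olig2cKO tumours (score 330.31, percentile 50.1). All 4 histone peaks were wide, from 4274 to 5227 bp, and above percentile 96 of their lists by width, while none was above percentile 68 by score. The approximate gene position, 100.436 Mb, fell inside 3 of the 5 peaks and within 332 bp of the other two, the control H3K4me3 and the Olig2cKO H3K27ac peak.

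Olig2 peaks at Cnp were of middle and low rank. Their scores ran from 67.44 to 158.46 and their median lay at percentile 45.3. The highest (100416819 to 100417534, score 158.46, percentile 76.3) lay before the gene, toward Ttc25, with H3K4me3 in both genotypes (scores 654.70 and 537.98) and H3K27ac in neither. The next 2 by score lay at the edge of the stretch, at 100479950 to 100481874 (114.51), and at its start, at 100406619 to 100407253 (106.66). These 2 sites carried all 4 histone peaks. They held the 2 highest H3K4me3 scores of the stretch in each genotype, 1709.60 and 1348.84 in control and 1700.55 and 1676.09 in Olig2cKO tumours. They lay 28747 bp before and 43950 bp after the approximate gene position, and were not assigned to a gene.

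H3K27ac was listed at 5 of the 8 Olig2 sites of Cnp in control tumours (62.5%, exact 24.5 to 91.5) and at 7 of 8 in Olig2cKO tumours (87.5%, 47.3 to 99.7), against 68.9% and 70.2% of all Olig2 peaks. H3K4me3 was listed at 5 of 8 (62.5%) and 6 of 8 (75%, 34.9 to 96.8), against 55.6% and 58.1%. These intervals include the shares of the whole list. As at Mbp, 0 Olig2 sites were acetylated in control tumours alone, against 6.11% of all Olig2 peaks, a share that counts of 0 in 8 and 0 in 12 (exact upper limits 36.9% and 26.5%) do not set apart. A single control peak, H3K27ac at 100425248 to 100425956 (score 71.80), faced 2 small Olig2cKO peaks of 647 and 526 bp, in a place without Olig2.

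Around the gene, listed acetylation was more continuous in Olig2cKO tumours. From 100431305 to 100457941, a stretch of 26.6 kb with 5 Olig2 peaks, H3K27ac covered 56.2% in 3 control peaks and 79.5% in 5 Olig2cKO peaks. H3K4me3 covered 22.7% in 2 control and 32.8% in 4 Olig2cKO peaks. The borders of this stretch were drawn after the values were seen, and it starts with an Olig2cKO-only H3K27ac peak. How much of it belongs to Cnp and how much to its neighbours was not determined. The Olig2cKO H3K27ac list is also the longer, with 69365 peaks against 56600. It covered a median of 3497 bp of the 80 kb windows with any listed peak, against 2737 bp for control. The 3 control peaks were 5134, 4647 and 5193 bp wide, above percentile 96 of the list. The widest Olig2cKO peak (100441931 to 100447024, 5094 bp, score 382.22) was also its highest there, at percentile 78.1.

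The Olig2cKO-only H3K27ac peaks of Cnp numbered 2 of 9, against 30.9% of the list, and 0 of 6 control peaks were control-only, against 17.9%. Both Olig2cKO-only peaks overlapped an Olig2 peak of control tumours and H3K4me3 of Olig2cKO tumours. The first, 3010 bp from 100431305 to 100434314 (score 97.66, percentile 28.7), lay just before the gene, 1124 bp from the nearest control H3K27ac peak. There H3K4me3 was listed in both genotypes, with scores of 250.31 and 517.49. The second, 3463 bp from 100448930 to 100452392 (score 221.26, percentile 60.3), lay after the gene, 356 bp from a control peak. In the score decile of the second, 15.9% of Olig2cKO peaks had no partner, and in that of the first 51.9%. When neighbours within 1 kb also counted as partners, only the first remained Olig2cKO-only.

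Genotype-only H3K4me3 at Cnp was low in both lists, with 1 of 6 control peaks (against 8.13% of the list) and 3 of 8 Olig2cKO peaks (against 21.4%). The control-only peak lay at 100471060 to 100472254 (score 60.88, percentile 5.56) without Olig2 or H3K27ac. The 3 Olig2cKO-only peaks lay at 100425464 to 100425998, 100450244 to 100451307 and 100456213 to 100456884, with scores of 52.02, 76.95 and 67.66. All 3 lay on H3K27ac of Olig2cKO tumours, 1 of them on Olig2. In their score deciles 70.1%, 55.3% and 70.1% of Olig2cKO peaks had no partner. For the control-only peak the share in its decile was 36.8%. With lists of equal length 1 of the 3 stayed Olig2cKO-only, beside the 1 control-only peak. In control tumours 3 of 6 H3K4me3 peaks lacked H3K27ac, and in Olig2cKO tumours 1 of 8, against 33.4% and 33.3% of the lists.

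**Figure D3:**
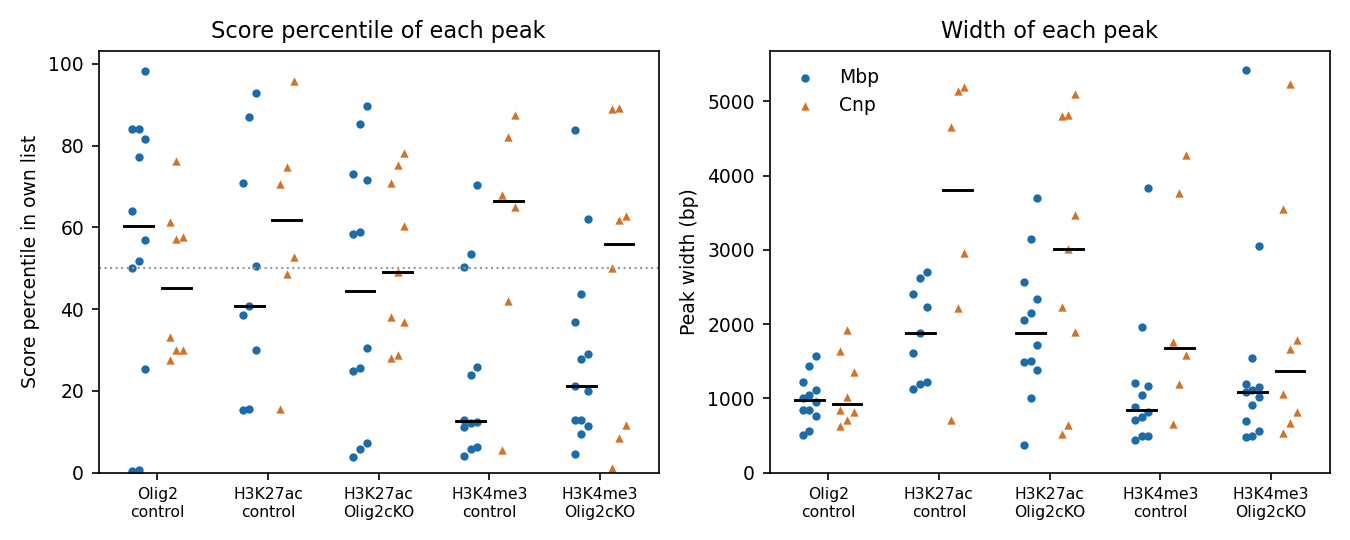
Every listed peak of the Mbp (circles) and Cnp (triangles) stretches, with its score percentile within its own list on the left (dotted line at 50) and its width in bp on the right, for the 5 libraries; black bars are medians. H3K4me3 peaks at Mbp have medians at percentiles 12.6 and 21.1, and those at Cnp at 66.5 and 55.9.

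The 2 stretches differed in the kind of histone peak they held. Control H3K27ac peaks had a median width of 1878 bp at Mbp and 3805 bp at Cnp, against 1475 bp in the whole list. In Olig2cKO tumours the medians were 1884 and 3010 bp, against 1434 bp. H3K4me3 peaks had medians of 852 and 1674 bp in control tumours (whole list 1104 bp) and 1086 and 1364 bp in Olig2cKO tumours (whole list 1211 bp). By median, peaks of the Cnp stretch were thus wider for both marks in both genotypes. Its H3K4me3 peaks ranked higher and its Olig2 peaks lower than those of the Mbp stretch. These medians are of stretches of unlike length, 200 and 80 kb, and include peaks not assigned to either gene. For H3K4me3 at the gene positions the order was the reverse. The highest peak at the start of Mbp stood at percentiles 70.3 (control) and 83.9 (Olig2cKO), and the peak at Cnp at 68 and 50.1. The ranges overlapped for every list, peaks of 1 locus are not replicates, and no test was made. Olig2 peaks lay on 6 of 9 control and 7 of 12 Olig2cKO H3K27ac peaks at Mbp, and on 5 of 6 and 7 of 9 at Cnp, against 49.5% and 42.5% of the whole lists. They lay on 5 of 6 control and 6 of 8 Olig2cKO H3K4me3 peaks at Cnp, against 55.7% and 50.3%. A wider peak meets an Olig2 peak more readily, and both stretches were dense in Olig2 peaks. Shares at equal width and density were not computed, so these contrasts are not separated from either.

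**Figure D4:**
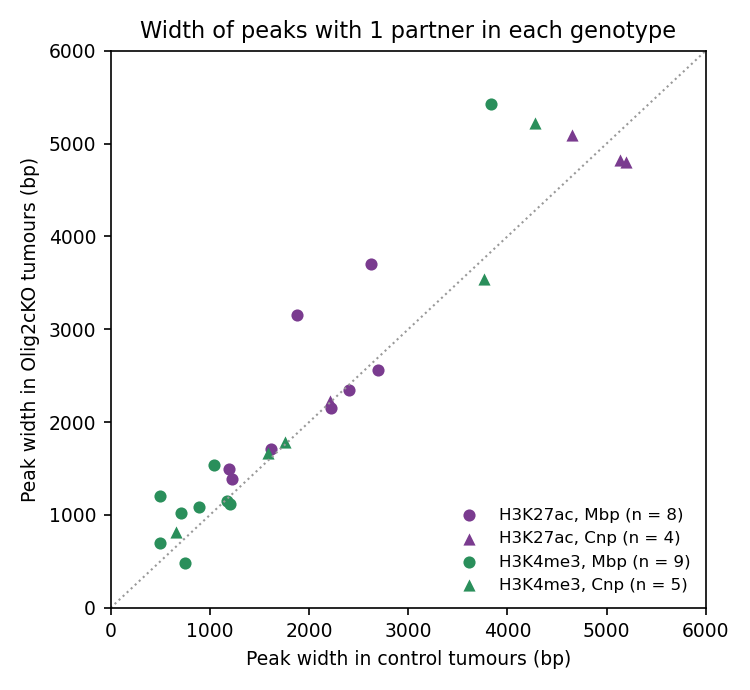
Width in bp of each shared peak in control (x axis) and Olig2cKO tumours (y axis), for peaks with exactly 1 partner in either list; the dotted line marks equal width. Of the 9 H3K4me3 pairs at Mbp 6 lie above the line, and of the 4 H3K27ac pairs at Cnp 2 do.

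Peaks with exactly 1 partner overlapped it over 88% to 100% of the shorter peak. Among 8 H3K27ac pairs at Mbp, 5 were wider in Olig2cKO tumours, with a median difference (Olig2cKO minus control) of 131 bp, and among 4 pairs at Cnp 2 were wider, with a median of -148 bp. Over the whole lists 57% of such pairs were wider in Olig2cKO tumours, by a median of 73 bp. The largest H3K27ac differences at Mbp were 1273 and 1077 bp, at the Olig2 sites of 82676718 to 82678595 and 82660775 to 82663395 in control coordinates. For H3K4me3, 6 of 9 pairs at Mbp and 4 of 5 at Cnp were wider in Olig2cKO tumours, against 76.7% of all pairs. The widest H3K4me3 peaks differed most, by 1596 bp at the broad peak inside Mbp and by 953 bp at the Cnp gene. Peak width can depend on the depth of a library, which is unknown, and the part of depth in these differences was not tested.

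Acetylation without H3K4me3 formed 1 domain at Mbp and none at Cnp, and this depended on weak H3K4me3 peaks. H3K27ac peaks without H3K4me3 of the same genotype, joined when at most 12.5 kb apart, gave 1 domain of at least 3 peaks, in Olig2cKO tumours. It spanned 13192 bp from 82732811 to 82746002, over the 3′ part of Mbp, and held 3 peaks. Control tumours had H3K27ac at the same 3 places, but their last peak overlapped the 444 bp control-only H3K4me3 peak and so did not count as distal. The domain thus differed between the lists through 1 weak H3K4me3 peak. At Cnp 8 of 9 Olig2cKO H3K27ac peaks overlapped Olig2cKO H3K4me3 and did not count as distal. Among them were the wide peaks at 100448930 to 100452392 and 100452760 to 100457562. These met H3K4me3 peaks of low score, at percentiles 11.7 and 8.45. The absence of a domain at Cnp therefore does not mean that acetylation there was sparse.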

How the data were processed

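The data are 5 peak lists from 5 libraries, 1 per group. A part of the genotype that all groups share is not reported here. Per the submitters' processing notes, the tools were CASAVA, Bowtie2 and MACS and the build was mm9. The sources used here give no version, setting or input library. Each list gives a start, an end and a score per peak. The score in the deposited files is the peak caller's own, was never below 50.00, and is not scaled between libraries. It was turned into a percentile (share of the list at or below it). Read depth is unknown, so differences between lists cannot be corrected for it.

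Overlaps of at least 1 bp were counted in Python 3.11.15 with numpy 2.4.6 and equalled bedtools 2.31.1 in 8 of 8 comparisons. In a simulated list, made by shifting real peaks slightly, every planted partner was found. That checks the counting alone, and partners found without being planted were not assessed. A peak without a partner in the other genotype is called genotype-only, which does not mean that the mark was absent. Positions count from 1. Windows of equal length were tiled from position 1 over chromosomes 1 to 19 and X. Intervals are exact (Clopper-Pearson, 95%, scipy 1.17.1) and cover counting error only. With 1 library per group no test between genotypes was possible. Figures used matplotlib 3.10.9.

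The members, lists and rules were chosen with earlier results of these data known. Named in full were Olig2 peaks, genotype-only peaks, the highest peak of each list and peaks at the gene positions; some further peaks were named after their values were seen. Counting of other myelin genes was planned only for an mm9 annotation and was not run.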

Additional observations from a re-analysis of the deposited data

How the results depend on the processing

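No paired analysis was possible because each group has 1 library, and for the same reason no replicate could be left out. The 16 counts were genotype-only peaks (per gene and list) and Olig2 peaks with each mark. An overlap of 50% of the shorter peak kept all 16 within 1.5 times, and peaks up to 1 kb apart kept 15, with Olig2cKO-only H3K27ac at Cnp at 1. With lists of equal length 12 stayed within 1.5 times. Mbp then had 2 control-only and 2 Olig2cKO-only H3K27ac peaks and 2 control-only H3K4me3 peaks, and Cnp had 1 Olig2cKO-only H3K4me3 peak. With the window wider by 50 kb Cnp had 5 Olig2cKO-only H3K27ac and 2 control-only H3K4me3 peaks, and Mbp had 5 Olig2cKO-only H3K4me3 peaks.

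With the upper 50% of each list, Olig2 peaks at Mbp with H3K27ac numbered 3 in control and 4 in Olig2cKO tumours and 0 with H3K4me3 in either, and at Cnp 3 for each of the 4 lists. Genotype-only peaks then numbered 0 (control) and 2 (Olig2cKO) for H3K27ac and 0 and 0 for H3K4me3 at Mbp, and 1 (Olig2cKO H3K27ac), 0 (control H3K4me3) and 1 (Olig2cKO H3K4me3) at Cnp. Covered length was 8341 bp (control H3K27ac), 13710 bp (Olig2cKO H3K27ac), 3822 bp (control H3K4me3) and 4588 bp (Olig2cKO H3K4me3) at Mbp, and 15592 bp (Olig2cKO H3K27ac) and 2247 bp (Olig2) at Cnp. With the upper 50% of 1 list set against all peaks of its counterpart, genotype-only peaks at Mbp were 0 and 1 for H3K27ac and 0 and 0 for H3K4me3, those at Cnp were 1 for Olig2cKO H3K27ac and 0 for H3K4me3 of either genotype, and Olig2 peaks at Cnp with each of the 4 lists were 3. All of these alternatives hold fewer peaks by construction.

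In the narrower window, Olig2 peaks at Cnp with control and Olig2cKO H3K27ac numbered 2 and 3 and with H3K4me3 2 and 2. Olig2cKO-only peaks were 1 (H3K27ac) and 0 (H3K4me3) at Cnp and 1 and 1 at Mbp, and control-only H3K4me3 at Cnp was 0. Covered length at Cnp was 3812 bp (Olig2), 9434 and 12296 bp (control and Olig2cKO H3K27ac) and 6036 and 7014 bp (control and Olig2cKO H3K4me3), in a window of fewer bases. Equal list length removed 2 excesses of Olig2cKO-only over control-only peaks, H3K27ac at Mbp (4 against 1 became 2 against 2) and H3K4me3 at Cnp (3 against 1 became 1 against 1).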

Other observations

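The surroundings of the 2 genes differed. In the 50 kb before the Mbp stretch, on the side of Galr1, 1 Olig2 peak, 2 Olig2cKO H3K4me3 peaks and no H3K27ac peak of either genotype were listed. In the 50 kb after it, toward Zfp236, 1 Olig2 peak was listed, with 1 control and 3 Olig2cKO H3K27ac peaks and 1 H3K4me3 peak in each genotype. The 50 kb before the Cnp stretch held 2 Olig2 peaks, 4 control and 5 Olig2cKO H3K27ac peaks, and 3 control and 2 Olig2cKO H3K4me3 peaks. The 50 kb after it held 2 Olig2 peaks, 0 control and 3 Olig2cKO H3K27ac peaks, and 1 control and 2 Olig2cKO H3K4me3 peaks, without those that cross the edge of the stretch. At the far edge of the Cnp stretch, the control H3K27ac peak of 2963 bp (score 1087.96, percentile 95.8, the highest of the stretch) faced 2 Olig2cKO peaks. The first, 1899 bp wide, scored at percentile 49.1 of its list, and the second, 1265 bp wide at 100481069 to 100482333 and at percentile 87.7, lay beyond the edge and was not counted.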
